A study of Mus musculus with 6 samples.

Results

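An immunoglobulin heavy-chain join can keep the reading frame and still be unable to code for a heavy chain. Here such joins were the sequences that the deposited tables call in frame and not functional, taken from all 6 libraries and set against in-frame sequences called functional (productive). There were 10245 of them among 177700 in-frame joins and 228609 sequences in all, and each of the 10245 also carried the deposited flag for a stop codon. They were split by whether a stop lies in the deposited translation of the CDR3, the loop coded by the end of V, the D gene and the start of J. That translation held a stop in 8981 and none in 1261, and 3 had no CDR3 and are described no further. The comparison classes held 167455 productive joins and 50909 out-of-frame joins.

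The libraries were made by VDJ-seq, which sequences rearranged heavy-chain genes from genomic DNA, so joins that yield no protein are read beside productive ones. The source of every library was the spleen of C57BL/6 mice at 12 weeks of age, with B cells enriched on magnetic columns (MACS) by depletion of other cells. A group of 4 libraries used 500 ng, 1 µg, 2.5 µg and 5 µg of DNA, and a pair named Q5_vent and Q5_Q5 differed in the DNA polymerases, and the sources used here give no DNA amount for this pair. Each group had 1 library and nothing says that the libraries came from separate mice, so p-values measure only the spread between these libraries, which may be technical. They held 8704, 17055, 56006 and 112320 sequences from 500 ng to 5 µg, 19490 in Q5_vent and 15034 in Q5_Q5. Ranges over libraries below follow no order of input unless stated.

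During B cell development a D gene is first joined to a J gene and a V gene is then joined to the DJ unit. Bases are trimmed from the ends and N bases are added between segments, so the frame and the codons at each join are largely a matter of chance. A cell whose first join fails can rearrange its other allele, and the failed join stays in the DNA of the B cell as a passenger. The D gene can be read in any of its frames. In most mouse D genes one frame codes for tyrosine and glycine, another for hydrophobic residues, and another runs into stop codons.

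The D genes behind most of the CDR3 stops are shown first, because most of those stops lay within D bases. Each is the base most often found at each aligned position in the deposited sequences, printed 5′ to 3′, with capitals marking stop codons in frame 2. Frame 2 means that the second germline D base opens a codon of the CDR3.
Ighd1-1: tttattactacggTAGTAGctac
Ighd2-1: tctactatggTAActac
Ighd2-3: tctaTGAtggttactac
Ighd2-4: tctactaTGAttacgac
Ighd2-5: cctactaTAGTAActac
Ighd2-2: tctactatggttacgac
Ighd1-1 belongs to the DFL16 family and the others to the DSP2 family. Ighd2-2 is shown as the contrast, since it has no stop in frame 2. None of the 6 has a stop in frame 1 or frame 3 of its own bases.

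In-frame joins that were not productive made up a narrow band of the in-frame joins. The input series of 500 ng, 1 µg, 2.5 µg and 5 µg held 401, 789, 2518 and 5006 of them, and the polymerase pair held 913 (Q5_vent) and 618 (Q5_Q5). As a share of in-frame joins the input series gave 5.96%, 5.96%, 5.77% and 5.73% in that order, with Wilson 95% intervals of 5.42 to 6.55 for the 500 ng library and 5.58 to 5.89 for the 5 µg library. Q5_vent gave 6.06% (5.69 to 6.45) and Q5_Q5 5.27% (4.88 to 5.69). Q5_Q5 was the lowest. The difference of the 5 µg from the 500 ng library was -0.223 percentage points, with an interval of -0.809 to 0.363 that includes 0. The difference of Q5_Q5 from Q5_vent was -0.791 points, with an interval of -1.35 to -0.236. Intervals cover counting error only, and with 1 library per group no difference between libraries has a replicate check.

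The difference of Q5_Q5 from Q5_vent was -0.403 percentage points for joins with a CDR3 stop (interval -0.932 to 0.126) and -0.388 for those without one (-0.566 to -0.211). Joins with a CDR3 stop made up 5.14%, 5.17%, 5.03% and 5.02% of in-frame joins from 500 ng to 5 µg, 5.29% in Q5_vent and 4.89% in Q5_Q5. The ratio of Q5_Q5 to Q5_vent was 0.924 (0.832 to 1.03). Joins without a CDR3 stop made up 0.787%, 0.793%, 0.748% and 0.708% along the input series, 0.763% in Q5_vent and 0.375% in Q5_Q5, a ratio of 0.491 (0.347 to 0.695). The 5 µg to 500 ng ratio was 0.899 (0.680 to 1.19). Set against out-of-frame joins, which are also unable to code, there were 17.4 to 18.1 joins with a CDR3 stop per 100 in the 6 libraries.

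**Figure D1:**
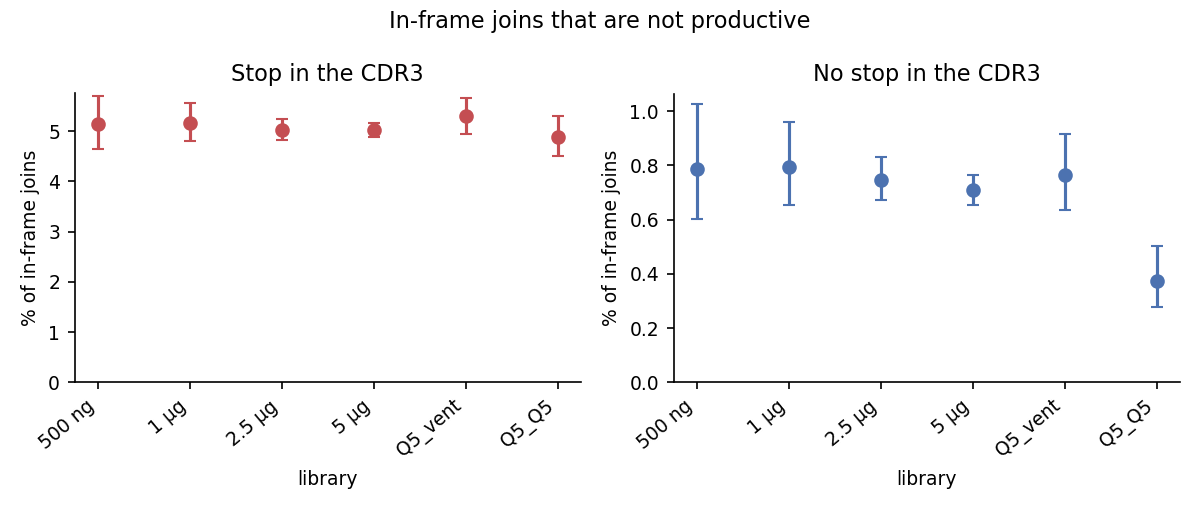
The share of in-frame joins with a CDR3 stop (left) and of those not productive without a CDR3 stop (right; vertical axes, %) in each library (horizontal axes); points are 1 library and bars are Wilson 95% intervals. Q5_Q5 has the lowest share in each panel, and its interval for joins without a CDR3 stop (0.279 to 0.503) lies below those of the other 5 libraries.

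A few technical measures moved with the class. Sequences whose J primer tag is marked unclear were not productive in 10.3% of in-frame joins on average (9.08 to 11.5 over the libraries), against 5.29% (5.00 to 5.47) where the tag was clear. Unclear tags made up 18.3% of joins with a CDR3 stop, 17.7% of out-of-frame joins, 10.8% of joins without a CDR3 stop and 9.22% of productive joins. They fell almost wholly on Ighj2 and Ighj3, and their part in the class shares was not tested beyond leaving them out. Mean reads per sequence, as inferred from the sequence names and averaged over the 6 libraries, were 10.9 both with a CDR3 stop and in productive joins. Joins without a CDR3 stop had a mean of 9.92, lower than productive joins in each library. Aligned V length was 175 to 181 bases per library with a CDR3 stop, 178 to 187 in productive joins and 227 to 241 in joins without a CDR3 stop.

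Most CDR3 stops were spelled by the D gene itself. In 8858 of the 8981 joins the deposited CDR3 translation matched its bases read from the first one, and these held 12723 stops. In 5332 of them there was 1 stop, in 3199 there were 2 and in 327 there were 3 or more. On average 75.0% of stops lay wholly within aligned D bases (73.2 to 76.6 over the 6 libraries). Another 9.47% lay between V and D, 9.12% spanned a border between segments, 4.37% lay between D and J, 1.29% in V and 0.270% in J. Counted by join, 74.1% ± 1.34 (SD, n = 6) had a stop wholly in D, and 82.8% ± 1.16 had one with at least 1 D base. TAG made up 56.7% of all CDR3 stops, TGA 22.7% and TAA 20.7%. The first stop stood at codon 6 at the median in every library.

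Joins with a CDR3 stop mostly read D in frame 2. Because a stop in the CDR3 chose these joins, their frames are a description and carry no test. Among DSP2 joins with a CDR3 stop, 78.6% ± 1.28 (SD, n = 6) used frame 2, 16.4% frame 3 and 4.94% frame 1. Productive DSP2 joins used frame 3, the tyrosine-rich one, in 85.5%, frame 2 in 9.86% and frame 1 in 4.65%. Out-of-frame DSP2 joins, whose CDR3 codons are counted from its first base, spread over the frames at 44.7%, 30.3% and 25% for frames 1, 2 and 3.

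DFL16 joins with a CDR3 stop also centred on frame 2. With a CDR3 stop, 77.7% were in frame 2, 14.6% in frame 3 and 7.71% in frame 1. Productive DFL16 joins were in frame 3 in 70.1%, frame 1 in 23.2% and frame 2 in 6.74%. Out-of-frame DFL16 joins stood at 40.1%, 32.2% and 27.7% for frames 1, 2 and 3. In both families the lowest library with a CDR3 stop was far above the highest productive library in frame 2, as the selection on stops requires.

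**Figure D2:**
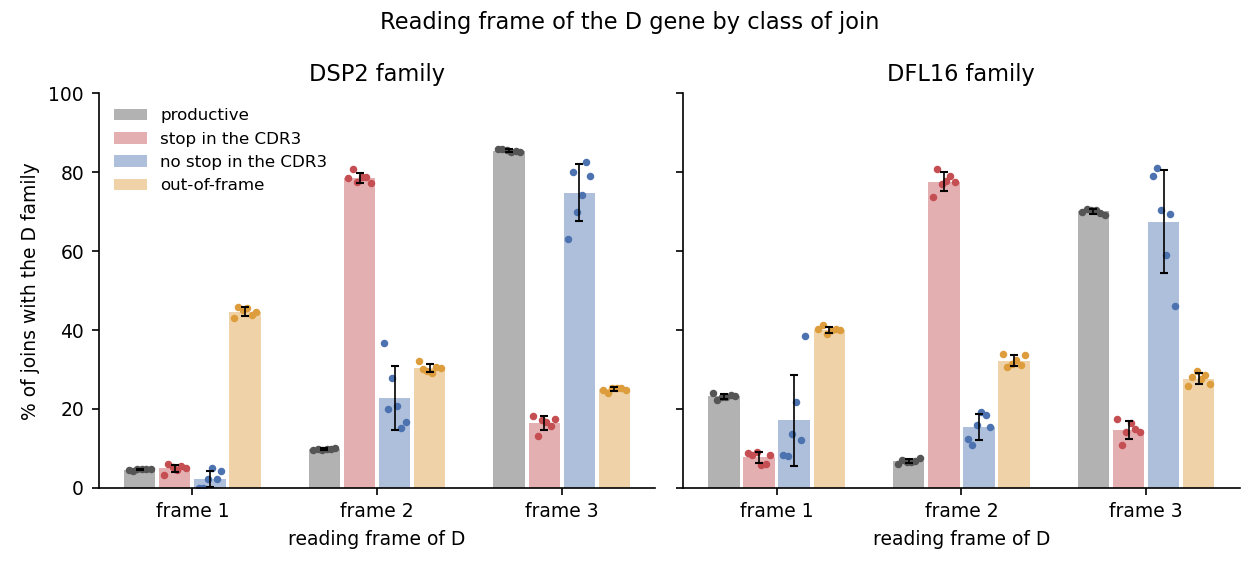
Share of joins (vertical axis, %) in each D reading frame (horizontal axis) for the DSP2 and DFL16 families, by class; bars are means, error bars SD and points the 6 libraries. Joins with a CDR3 stop centre on frame 2 (78.6% and 77.7%), productive joins on frame 3 (85.5% and 70.1%), and out-of-frame joins spread over the 3 frames.

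In frame 2 the D genes differed widely in the share of joins with a stop, and the 5 genes printed with a stop stood above Ighd2-2. Over the pooled libraries, 970 of 988 in-frame Ighd2-5 joins in frame 2 had a CDR3 stop (98.2%, Wilson 95% interval 97.1 to 98.8). No such join was productive, and 0 of 988 allows a share of up to 0.304%. Ighd2-1 had a stop in 55.6% of its 1297 frame 2 joins (52.9 to 58.3), Ighd1-1 in 42.4% of 6766 (41.3 to 43.6) and Ighd2-4 in 41.0% of 2894 (39.2 to 42.8). Ighd2-3 had one in 23.6% of 2784 (22.1 to 25.2). Ighd2-2, without a germline stop in this frame, had one in 1.36% of 1174 (0.841 to 2.20). The intervals of Ighd1-1 and Ighd2-4 overlap, and those of the other neighbours in this order do not. The D name itself rests on the aligned bases. Ighd2-5 and Ighd2-1 differ only at their start and within the TAG of Ighd2-5, so a join that lost those bases can carry another name. How far naming shapes these shares was not tested. Pooled values follow the 5 µg library, which holds the most joins. Per library, Ighd1-1 ranged from 38.1% to 44.4% and Ighd2-3 from 17.8% to 27%.

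The other frames held few stops. In frame 3 the same genes had a CDR3 stop in 1.11% of Ighd1-1 joins, 1.15% of Ighd2-4, 1.33% of Ighd2-1, 1.36% of Ighd2-2, 1.44% of Ighd2-5 and 1.59% of Ighd2-3. In frame 1 Ighd1-1 stood at 1.68%, while Ighd2-1 reached 8.07%, Ighd2-4 10.8%, Ighd2-3 13.5% and Ighd2-5 22.2%, over 322, 620, 341 and 203 joins in turn. Where these frames did hold stops, over all D genes, most did not lie wholly within D, with 4.18% of stops in frame 3 joins doing so. Of 10550 stops in frame 2 joins, 90.0% were within D. Of 573 stops in frame 1 joins, 45.7% lay between D and J and 37.2% between V and D. Of 1508 stops in frame 3 joins, 42.7% spanned a border and 37.2% lay between V and D.

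In productive joins that used frame 2, the aligned D bases on average did not cover the whole germline stop. A frame 2 join that keeps such a stop cannot be productive, so these values follow from the classes and are a description. The stop of Ighd1-1 begins at its germline base 14, and in productive frame 2 joins the last aligned D base was on average base 13.0 (12.7 to 13.3 over the libraries). With a CDR3 stop it was base 20.1 (19.8 to 20.4), so the libraries did not overlap. The aligned stretch of Ighd1-1 in frame 2 was 8.09 bases in productive joins, 15.6 with a CDR3 stop and 14.4 out of frame. Ighd2-1, with its stop at base 11, ended at base 8.77 in productive frame 2 joins and at 15.7 with a CDR3 stop. Ighd2-3 carries its stop near the start of the gene, and there the V side differed: the first aligned base was 7.16 in productive joins and 2.95 with a CDR3 stop. For Ighd2-4, whose stop begins at base 8, the mean first aligned base was 9.06 against 4.14.

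D gene shares are likewise tied to the choice of joins and are given as a description. The 5 genes printed with a stop each made up more of the joins with a CDR3 stop than of productive joins. Ighd2-5 made up 12.4% of joins with a CDR3 stop, 9.14% of out-of-frame joins and 5.93% of productive joins. Ighd2-1 stood at 9.71%, 7.70% and 5.99% in the same order, Ighd2-4 at 16.7%, 14.2% and 11.8%, Ighd2-3 at 9.98%, 9.69% and 8.56%, and Ighd1-1 at 40.9%, 37.0% and 38.5%. In the other direction, Ighd2-2 made up 1.09% with a CDR3 stop, 3.94% out of frame and 4.09% in productive joins. Ighd4-1, the short DQ52 gene, made up 2.27%, 4.13% and 6.99%, although it has a stop at the start of frame 2. Ighd2-12, at 1.11% against 1.24%, Ighd2-14, at 0.292% against 0.507%, and Ighd6-1, at 0.143% against 0.429% of productive joins, also have a frame 2 stop and were lower. By family, DSP2 was 13.1 points higher with a CDR3 stop than in productive joins and higher in 6 of 6 libraries, DQ52 was lower in 6 of 6 (difference -4.72) and DST4 lower in 6 of 6 (difference -4.50). DFL16 was 1.70 points higher, in 5 of 6.

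Joins with a CDR3 stop had longer CDR3s and kept more of D. Mean CDR3 length was 41.3, 40.5, 40.7 and 40.9 bases from 500 ng to 5 µg, 40.5 in Q5_vent and 40.9 in Q5_Q5. In productive joins it was 37.8 to 38.0 bases, and the libraries of the 2 classes did not overlap. The mean difference was 2.89 bases ± 0.269 (SD, n = 6), higher in 6 of 6 libraries, and against out-of-frame joins, at 38.5 bases, it was 2.27. The aligned D stretch was 13.1 bases against 11.5 in productive joins and 12.2 out of frame. Only 0.963% had no D call, against 6.11% of productive joins. A stop in the CDR3 chose these joins, and a longer CDR3 or D holds more codons, so these lengths carry no test.

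The length difference was smaller where the deposited CDR3 begins at its usual place. The CDR3 normally follows the codon of the conserved cysteine (TGT or TGC), yet 739 joins with a CDR3 stop (8.23%) did not have that codon before it, against 638 productive joins (0.381%) and 3425 out-of-frame joins (6.73%). Over joins with the cysteine codon, mean CDR3 length was 39.8 bases with a stop, 37.9 in productive joins and 38.2 out of frame. The difference from productive joins was then 1.95 bases and that from out-of-frame joins 1.61, both still positive in 6 of 6 libraries. This restriction was chosen after the values were seen.

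**Figure D3:**
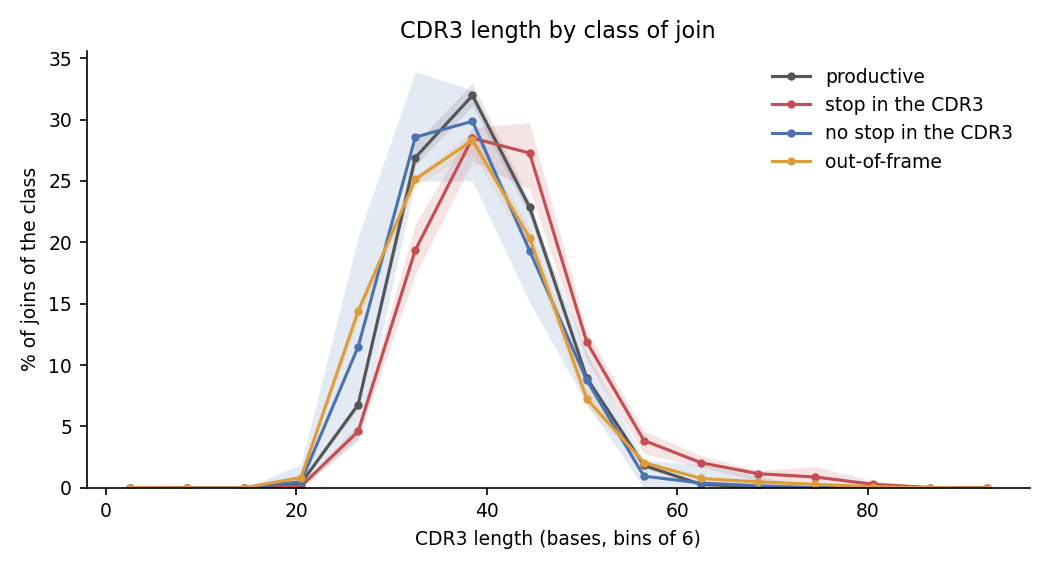
Share of joins (vertical axis, %) by CDR3 length (horizontal axis, bases in bins of 6) for the classes of join; lines are means over the 6 libraries and bands span the lowest to the highest library. Joins with a CDR3 stop are shifted to longer CDR3s, with a mean of 40.8 bases against 37.9 in productive joins.

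The bases between the aligned segments, which hold the N additions, were also more numerous. Between V and D there were 4.71 bases with a CDR3 stop (4.68 to 4.77), 4.29 in productive joins (4.27 to 4.32) and 4.4 out of frame. Between D and J there were 3.74 (3.51 to 3.85), 3.19 (3.17 to 3.21) and 3.52 in the same order. Both differences from productive joins, 0.417 and 0.551 bases, were positive in 6 of 6 libraries and are a description on the same ground. Leaving out CDR3s that do not follow a cysteine codon kept both directions.

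Ighj3 was more frequent, and Ighj4 and Ighj1 less frequent, than in productive joins in each library. Ighj3 made up 29.7% with a CDR3 stop (26.7 to 31.8 over libraries), 29.2% out of frame and 22.5% in productive joins (21.4 to 23.7). Ighj4 made up 22.5%, 22.3% and 28.8%, and Ighj1 16.1%, 16.1% and 19.3%. Each was on 1 side of productive joins in 6 of 6 libraries, with differences of 7.28, -6.27 and -3.22 points (adjusted p = 0.0534 each). The test was an exact two-sided sign-flip permutation test over the libraries, for which 6 libraries allow no p below 0.03125. After Benjamini-Hochberg adjustment over the 41 differences computed, no difference passed 0.05. Ighj2 stood at 31.7% against 29.5%, but with unclear primer tags left out its difference turned to -1.0 points. Tags were unclear in 35.8% of Ighj2 joins with a CDR3 stop and in 21.8% of productive ones. For Ighj3 these shares were 21.1% and 11.5%, and for Ighj1 and Ighj4 none was above 2.03%.

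V gene names did not enter the choice of joins with a CDR3 stop, but stops in V can shape the classes. A stop in V bases keeps a join out of the productive class. Of Ighv4-2 and Ighv1-70 joins reaching the V stop printed below, 0 of 157 and 0 of 105 were productive. Their log2 ratios against productive joins were 4.46 and 4.52. Of 542 joins with an early CDR3 start, described below, 279 had a TGA after gca inside the CDR3. In the sequences printed below, the usual start is that gca, so the TGA would lie in the CDR3 with either start. How far such stops shape the calls was not tested. Of 93 V genes with at least 200 in-frame joins, 31 made up a higher share of joins with a CDR3 stop than of productive joins (33.3% of those tested) and 44 a lower share (47.3%), in a limma fit on log2 shares paired by library with adjusted p under 0.05. With so much of the repertoire called, a single call says little, and sizes are given. Of the called genes, 23 of 31 and 33 of 44 had the same direction in each library with at least 5 sequences of the gene. The median log2 ratio over all genes tested was -0.33.

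Of the 31 genes that rose, 11 were of the families Ighv2 and Ighv5, which lie nearest the D genes. Ighv5-2 (chr12:113578504-113578990, GRCm38.p6 in RefSeq), a gene close to the D cluster, made up 4.36% to 6.39% of joins with a CDR3 stop per library and 0.0804% to 0.126% of productive joins. The libraries of the classes did not overlap, with a log2 ratio of 5.40 ± 0.11 (SE; limma, adjusted p = 8.14e-39), or 42.2-fold. Put the other way, 68.8% of its 644 in-frame joins had a CDR3 stop (Wilson interval 65.1 to 72.2). Ighv1-11 (chr12:114612244-114612536) rose by a log2 ratio of 5.05, with a median of 2.01% against 0.0625%. Ighv12-3 (chr12:114366526-114366819), known from B-1 cells that bind phosphatidylcholine, rose by 3.26, from a median of 0.272% in productive joins to 2.47%. Ighv11-2 (chr12:114048241-114048704), also a B-1 gene, rose by 2.28. Ighv2-6 rose by 3.08, Ighv15-2 by 2.23, Ighv13-2 by 2.04 and Ighv2-2 by 1.21.

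The genes that fell were mostly of the large Ighv1 family. Ighv1-26 (chr12:114788372-114788665) was the most used V gene of productive joins, at 5.67% to 6.11%, and made up 2.09% to 3.76% of joins with a CDR3 stop. Its log2 ratio was -1.08 (limma, adjusted p = 1.69e-16). Ighv1-80 (chr12:115912344-115912637) had the lowest ratio, -1.63, followed by Ighv1-82 at -1.52, Ighv9-3 at -1.19, Ighv1-81 at -1.15 and Ighv1-53 at -1.11. Of 46 Ighv1 genes tested, 31 fell and 7 rose. Of 8 Ighv2 genes, 7 rose and none fell, of 11 Ighv5 genes 4 rose and 3 fell, and all 4 Ighv14 genes fell. Summed by position, the proximal families Ighv2 and Ighv5 had 11 genes up and 3 down of 19 (median log2 ratio 0.61), and the distal families Ighv1 and Ighv8 had 8 up and 33 down of 50 (median -0.63). An exact Cochran-Mantel-Haenszel test over libraries, which covers counting error only, called 9 proximal genes up and 5 down. By that test 5 Ighv2 genes rose, while 4 Ighv5 genes rose and 5 fell. Of the distal genes it called 8 up and 34 down. In shares, Ighv2 and Ighv5 made up 19.5% with a CDR3 stop, 10.6% of productive and 24.7% of out-of-frame joins.

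Against out-of-frame joins fewer V genes were called, in a comparison with a smaller reference class. There 7 of 93 genes were higher (7.53%) and 4 lower (4.3%) by the same fit. Ighv5-2 made up 5.78% to 7.40% of out-of-frame joins and had a log2 ratio of -0.39 ± 0.07 (limma, adjusted p = 3.96e-05). Ighv12-3 had a ratio of 0.20 (adjusted p = 0.12 by limma) and Ighv11-2 of 0.15 (adjusted p = 0.51), neither called. Ighv2-6 and Ighv2-6-1 were lower, at -0.64 and -0.79, as was Ighv3-2, at -1.11. Ighv1-22 was higher at 0.57, Ighv7-3 at 0.55, Ighv1-64 at 0.42, Ighv1-50 at 0.40 and Ighv1-55 at 0.39. For Ighv1-64, 39 of 187 joins with a CDR3 stop had it in aligned V bases, as described below, and the ratio without them was not computed. In all 11 genes were called, against 5 without the 5 µg library and 5 without the 2.5 µg library. The exact test called 3 genes higher and 6 lower. Of the Ighv1 genes it called 2 higher, against 6 by limma. The limma ratios leaned upward, with 66 of 93 above 0 and a median of 0.15.

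**Figure D4:**
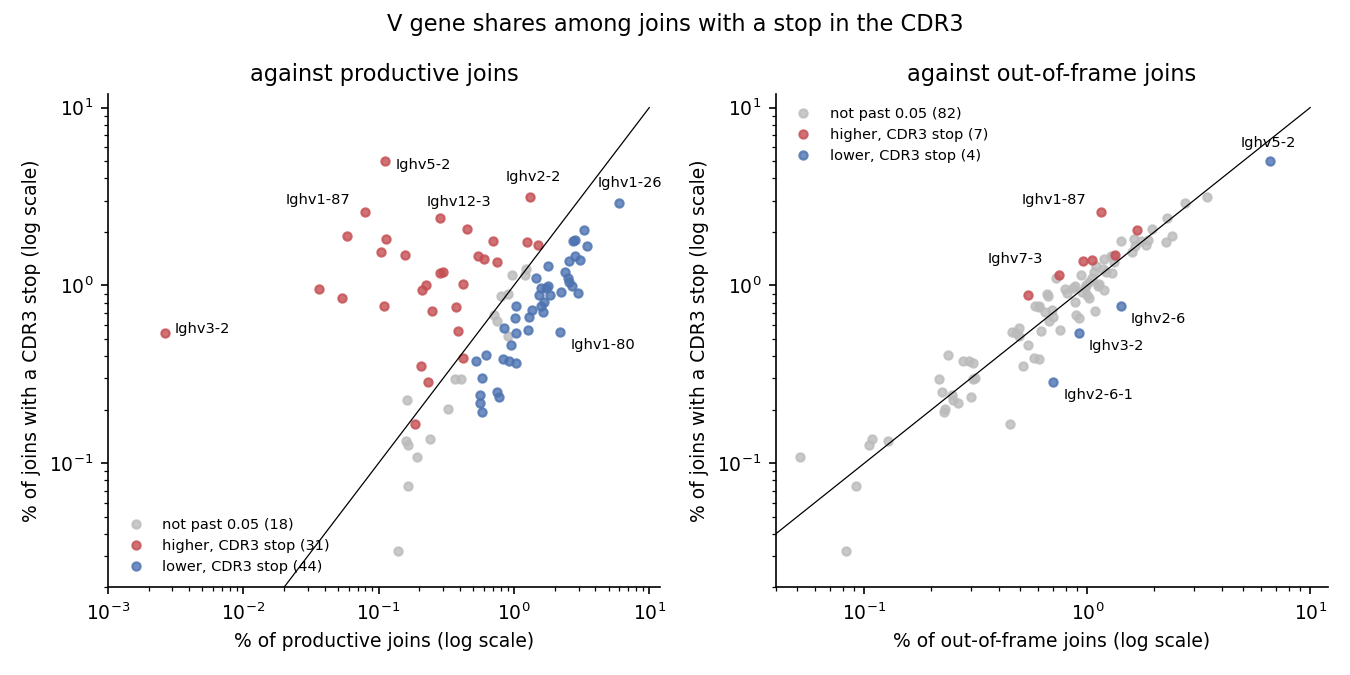
Mean share of each of 93 V genes among joins with a CDR3 stop (vertical axes, %, log scale) against its share of productive (left) or out-of-frame joins (right; horizontal axes, %, log scale); points are V genes coloured by call and the line marks equal shares. Calls are 31 higher and 44 lower on the left, and 7 higher and 4 lower on the right, where the points lie near the line.

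Ighv1-87 was higher than in both reference classes. It made up 2.19% to 3.18% of joins with a CDR3 stop, 0.996% to 1.31% of out-of-frame joins and 0.0563% to 0.0948% of productive joins. Its log2 ratio was 4.85 against productive and 1.07 ± 0.10 against out-of-frame joins (limma, adjusted p = 5.03e-13). Only 43.5% of its joins with a CDR3 stop had one wholly in D, the lowest of 69 V genes with at least 50 such joins, whose median was 75.9%. Of its 354 in-frame joins, 349 had a deposited CDR3 that began early, at tctgaggac, and the codon after gca was often a stop. The bases from that early start onwards are printed for the commonest Ighv1-87 sequence with that stop (174 of 175) and, for comparison, for the same stretch of the commonest productive Ighv1-64 sequence, with the stop in capitals.
Ighv1-87 with a stop: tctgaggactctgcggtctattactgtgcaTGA
Ighv1-64 productive: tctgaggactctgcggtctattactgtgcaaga
The sequences are taken from the deposited reads.

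The same early start and the same stop were found under other V names. In all, 542 in-frame joins began their CDR3 at tctgaggac, 531 of them 27 bases before the usual start: 349 were called Ighv1-87, 77 Ighv1-64, 62 Ighv1-4, 24 Ighv1S26 and 23 Ighv1-69. TGA followed gca in 175 of the Ighv1-87 joins (50.1%), 39 of the Ighv1-64 joins (50.6%), 29 of the Ighv1-4 joins, 17 of the Ighv1S26 joins and 18 of the Ighv1-69 joins. Over all 542 it did so in 279 (51.5%). Among 128660 in-frame joins whose CDR3 began with gca after a cysteine codon, TGA came next in 16 (0.0124%) and AGA in 79.7%. Whether that TGA counts as V depended on the V name. For Ighv1-87 none of the 175 lay in aligned V bases, whereas under the other V names all 104 lay wholly within them. The stops in V were led by the other names: 39 of 187 joins with a CDR3 stop for Ighv1-64, 29 of 71 for Ighv1-4, 18 of 92 for Ighv1-69 and 17 of 18 for Ighv1S26 had a stop in aligned V bases. Of 143 stops in V, 95.1% were TGA. Whether the TGA belongs to a germline V gene was not tested, as no V germline sequences were used here.

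Joins without a CDR3 stop had CDR3 values near those of productive joins. Mean CDR3 length was 36.9 bases against 37.9 in productive joins (difference -0.970, lower in 5 of 6 libraries, exact permutation adjusted p = 0.0949). There were 4.48 bases between V and D and 3.19 between D and J, against 4.29 and 3.19. The aligned D stretch was 11.5 bases in both, and 4.81% had no D call against 6.11%. Ighj4 made up 24.8% against 28.8%, lower in 6 of 6 libraries (difference -3.97, exact permutation adjusted p = 0.0534).

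In joins without a CDR3 stop frame 2 of D was more frequent than in productive joins, but this depended on how the CDR3 was translated. It was used by 22.9% of their DSP2 joins (15.2 to 36.8 over libraries) and 15.4% of their DFL16 joins, 13.0 and 8.64 points above productive joins. In 448 of the 1261 (35.5%) the deposited CDR3 translation was not that of its bases read from the first one, and 447 of these had a gap in the V alignment, so the frame counted from the CDR3 start need not be the one the authors translated. Without those joins the differences in frame 2 were 3.90 points for DSP2 and -1.32 for DFL16. Among joins with a CDR3 stop only 123 (1.37%), and among productive joins 40, were translated in another frame.

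The stop outside the CDR3 was sought in the V bases read in the frame of the CDR3. In 433 of the 1261 it matched the aligned V gene, in 413 it held a mismatch to it, in 295 a gap in the V alignment lay between the stop and the CDR3, and 120 had no stop in that frame. A stop counted as matching when it began in aligned V bases and none of its aligned bases was a mismatch. Stop bases beyond the end of the V alignment were not compared, so some of the 433 may not be coded by V alone. No stop lay in the J part, and 0 of 1261 allows a share of up to 0.238%. Longer reads reach more of V, and the share without a CDR3 stop was higher with more aligned V: 0.182% of in-frame joins under 100 bases, 0.373% at 100 to 149, 0.622% at 150 to 199, 0.979% at 200 to 249 and 1.20% from 250 bases. The share with a CDR3 stop stood between 4.74% and 5.48% over the same lengths.

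The polymerase libraries differed in the stops that hold a mismatch. These made up 0.312%, 0.287%, 0.255% and 0.224% of in-frame joins from 500 ng to 5 µg, 0.299% in Q5_vent and 0.0170% in Q5_Q5, where only 2 were found. The ratio of Q5_Q5 to Q5_vent was 0.0571 (0.0139 to 0.235). Stops that matched the aligned V gene made up 0.163% to 0.258% in the 6 libraries, with a ratio of 1.10 (0.676 to 1.79). Stops with a gap before the CDR3 had a ratio of 0.346 (0.150 to 0.796). So the interval included 1 for stops matching the V gene and not for those with a mismatch or a gap.

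**Figure D5:**
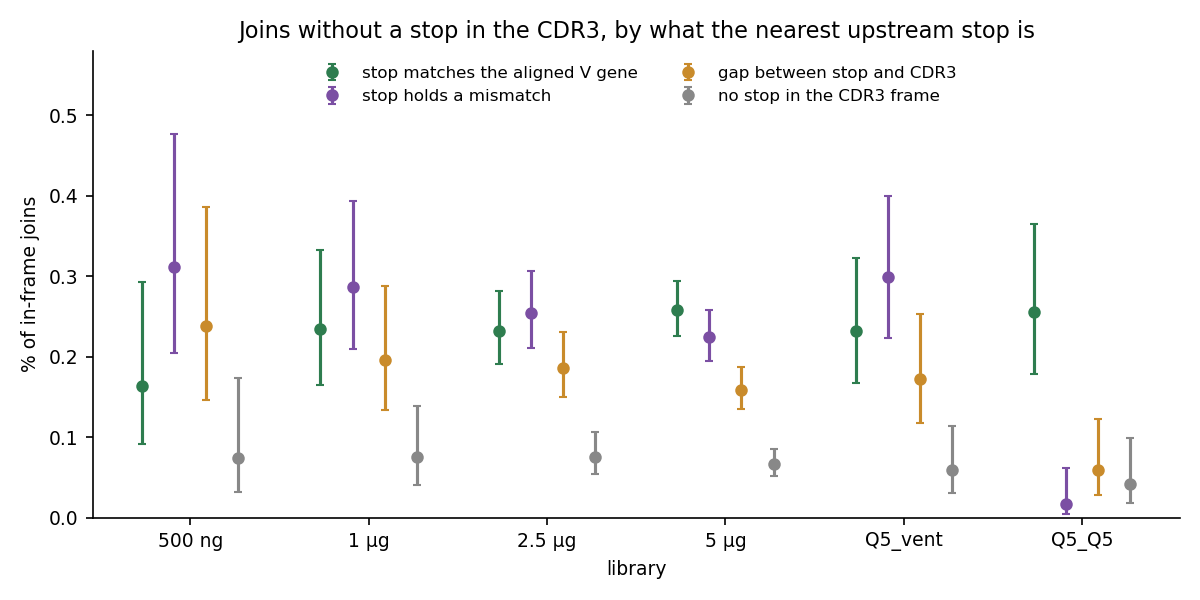
Joins without a CDR3 stop as a share of in-frame joins (vertical axis, %) by library (horizontal axis) and by the kind of stop found upstream; points are 1 library and bars are Wilson 95% intervals. Stops holding a mismatch stand at 0.224% to 0.312% in 5 libraries and at 0.0170% in Q5_Q5, while stops matching the aligned V gene lie between 0.163% and 0.258% in all 6.

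V mismatches of any kind were also fewer in Q5_Q5. A mismatch was present in 6.14% of productive joins in Q5_vent and 2.89% in Q5_Q5 (ratio 0.470, 0.414 to 0.533). With a CDR3 stop the shares were 13.7% and 11% (ratio 0.804, 0.601 to 1.08), and without a CDR3 stop 64.3% and 43.2% (ratio 0.671, 0.47 to 0.967). Over the 6 libraries, joins with a CDR3 stop carried a mismatch in 13.3%, productive joins in 6.03% and out-of-frame joins in 11%. Of the 413 stops with a mismatch, 412 held a single one. The commonest changes from the V gene were G to T (105), A to T (101) and G to A (78). The codons most often turned into a stop were AAG to TAG (62), GAG to TAG (52), TGG to TGA (46) and GGA to TGA (43). These stops were spread over 81 V genes, and the most in any gene was 26, in Ighv1-26.

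Stops that matched the aligned V gene were concentrated in a few V genes. They occurred in 39 genes, and 13 of these with at least 5 such joins held 387 of the 433. The stop and the 15 bases on either side are printed for the genes with the most, to show where each V gene is broken, with the stop in capitals and bases as most often found in the deposited reads.
Ighv4-2: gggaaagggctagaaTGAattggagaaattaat
Ighv1-27: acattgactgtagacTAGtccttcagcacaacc
Ighv1-70: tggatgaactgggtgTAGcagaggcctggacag
Ighv8-7: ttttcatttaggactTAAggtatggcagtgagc
Ighv5-1: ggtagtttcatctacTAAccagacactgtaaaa
Ighv1-25: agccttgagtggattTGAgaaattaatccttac
The stop of Ighv4-2 lies at base 139 of the aligned V gene, that of Ighv1-27 at 220, Ighv1-70 at 112, Ighv8-7 at 94, Ighv5-1 at 178 and Ighv1-25 at 145.

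In the genes printed, productive joins were found among reads that end short of the stop, apart from 1 of Ighv1-27. Among the 13 genes, Ighv5-2 was an exception. Of its 7 joins with a stop counted as matching V, 5 had it at base 286, 1 codon before the CDR3, where the cysteine codon normally stands. All 644 of its in-frame joins reached that base and 193 were productive. The bases around the stop varied, with the commonest sequence in 1 of 5. These stops may run past the V alignment and are not read as a stop of the V gene. Of 258 in-frame Ighv4-2 joins, 157 reached base 139 and none of them was productive (0 of 157 allows up to 1.91%), while 75 of the 101 that did not reach it were. For Ighv1-70, 0 of 105 reaching joins (up to 2.86%) and 63 of 109 others were productive. For Ighv8-7 the counts were 0 of 68 (up to 4.41%) and 79 of 114, and for Ighv5-1 they were 0 of 63 (up to 4.76%) and 19 of 33. All 103 in-frame Ighv1-27 joins reached the stop and 1 was called productive.

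By V gene, joins without a CDR3 stop were set against productive joins. Since these joins were chosen by a stop that lies in V where it was found, V gene use follows in part from the choice and is a description. Calls are from an exact Cochran-Mantel-Haenszel test over libraries, which covers counting error only, and nothing is read from them. The limma fit was not used here because in simulated counts without any change it called 21 to 27 of 85 to 86 genes, where this test called none. The simulated libraries differed by counting error only, so they do not show how the exact test behaves with spread between libraries. Of 93 genes, 5 were higher (5.38%) and 20 lower (21.5%), 25 in all. Without the 5 µg library 76 genes could be tested and 3 were called, all lower, and without the 2.5 µg library 17 were called. The 5 higher genes were Ighv3-2, Ighv4-2, Ighv1-70, Ighv1-63 and Ighv5-2. Ighv4-2 (chr12:114013144-114013439) had 94 such joins and 75 productive ones, with a log2 ratio of 7.37, and in all 94 the stop was the one printed above. Ighv1-70 (chr12:115691889-115692182) had 72 and 63, with a ratio of 7.23. Ighv1-63 had a ratio of 2.3, and 22 of its 23 joins had a gap between the stop and the CDR3. Ighv5-2 had 8 joins and a ratio of 2.46. The median log2 ratio over all 93 genes was -0.91, and 6 of the 20 lower genes had 1 direction in each library with at least 5 sequences. Among the lower genes were Ighv8-8 at -1.88, Ighv1-15 at -1.72, Ighv1-50 at -1.43, Ighv2-2 at -1.27 and Ighv1-26 at -0.97, the last near the median of all genes.

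Ighv3-2 (chr12:114033803-114034097) was the extreme case. It held 188 joins without a CDR3 stop, 32 with one and 1 productive join, and 476 out of frame. All 188 and all 32 had a gap in the V alignment and a CDR3 translated in another frame than its first base gives. It made up 6.96% to 20.5% of joins without a CDR3 stop per library. Against productive joins both classes were higher for this gene, but with 1 productive join a ratio has little meaning.

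Genes that RefSeq lists as pseudogenes were found in every class. They made up 40.6% ± 13.7 (SD, n = 6) of joins without a CDR3 stop, 5.72% of those with one, 6.64% of out-of-frame joins and 1.43% of productive joins. Of 21 such genes, 8 had at least 50 in-frame joins. Ighv7-3 had 1676, of which 1580 were productive, 93 had a CDR3 stop and 3 had a stop elsewhere, and Ighv7-1 had 621, of which 495 were productive. Ighv12-1 had 65, with 45 productive and 20 with a CDR3 stop. Ighv5-1 had 96, with 19 productive, 33 with a CDR3 stop and 44 with a stop elsewhere. The share of pseudogenes without a CDR3 stop was highest in Q5_Q5, at 65.9%, where mismatch stops were rarest.

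Some clones with a CDR3 stop were found in more than 1 library. Counting a clone as 1 V gene, J gene and CDR3 sequence, 67 of 8821 clones with a CDR3 stop (0.760%), 5 of 1245 without one and 1201 of 163523 productive clones (0.734%) occurred in several libraries. The CDR3s of 3 clones found in 3 libraries each are printed to show how the D stop is kept, with stops in capitals.
Ighv1-49, Ighd2-5 and Ighj2: cgcTAATAGTAActtaaggtctttgactac
Ighv5-2, Ighd2-5 and Ighj2: gcaagacacctaTAGTAAgcctttgactac
Ighv4-1, Ighd2-3 and Ighj2: gcaagacgaTGAtggttactaaactac
The first 2 keep the TAGTAA of Ighd2-5 shown above and the last keeps the TGA of Ighd2-3. The labels do not say whether the libraries share DNA or animals.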

How the data were processed

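VDJ-seq was run on genomic DNA of splenic B cells in 6 libraries, per the labels. Bowtie2 2.3.2, Trim Galore 0.4.4 and mm10 are listed in the submitters' processing notes, and the version of the V, D and J caller is not stated in the sources used. The authors deposited 1 line per sequence with V, D and J calls, flags, lengths in bases and a CDR3. V identity is a fraction from 0 to 1 and the authors deposited a V alignment score for each sequence; neither gives a printed value. The number ending each sequence name was taken as reads, 3 or more in every sequence, an inference. The filter before deposit is not known.

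From these tables, V was the first gene of a call with alleles merged, and V mismatches came from the authors' alignment trace column. V genes with at least 200 in-frame joins were tested. Log2 shares, after adding 0.5 to counts, were fitted with limma 3.58.1 in R 4.3.3, paired by library and weighted by inverse counting variance, at a threshold of 0.05 after Benjamini-Hochberg adjustment. The numbers of bases between aligned segments hold N and P bases together. Of 166 V names 132 were found in RefSeq's GRCm38.p6 annotation, and 89 of the 93 tested. Other values were computed with Biopython 1.88, matplotlib 3.10.9, SciPy 1.17.1, NumPy 2.4.6 and pandas 2.3.3 under Python 3.11.15. All intervals are 95% intervals for counting error only. Depth limits the 500 ng library most: there a count of 0 allows up to 0.0446% of in-frame joins, against 0.00344% at 5 µg (3 counts of the total).

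Named genes were the 10 with the highest share in each comparison, up to 15 in each direction with the largest ratio among called genes with 1 direction in each library with 5 or more sequences, D genes with 500 or more not productive joins, pseudogenes with 50 or more in-frame joins, Ighv5-2, Ighv11-2 and Ighv12-3; other names were chosen after their values were seen. The members and lists were chosen with earlier results of these data known. On simulated counts for joins with a CDR3 stop against productive joins (85 to 87 genes), limma made 0 to 2 false calls without change and called 90.0% of genes changed 2-fold. For joins without a CDR3 stop (85 to 86 genes), the exact test made none and called 30.0%. Simulated libraries differed by counting error only. Alternatives were clone counting, single-gene calls, primer tags, read minimum, mismatches, D length, V gene minimum, the amount added, weights, the test, and leaving out libraries.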

Additional observations from a re-analysis of the deposited data

Results flagged for a closer look

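In 6 of 44 values screened over the 6 libraries (13.6%), the highest or lowest library stood apart from the rest by more than a gap test for single outlying values allows, which chance does in about 1 in 20 groups. Q5_Q5 accounts for 3: the share of in-frame not productive joins with a CDR3 stop was highest there (92.9%), the share of in-frame joins that were not productive without a CDR3 stop was lowest (0.375%), and so was the share of joins without a CDR3 stop that carry a V mismatch (43.2%). The 500 ng library accounts for the others, and it has the fewest joins. Its Ighj1 share among joins with a CDR3 stop was lowest (12.7%), its Ighj3 share among joins without a CDR3 stop was lowest (17.0%), and its mean number of bases between V and D in joins with a CDR3 stop was highest (4.77). Of the Q5_Q5 flags, the first and the second are tied, since fewer joins without a CDR3 stop raise the share with one. The values screened are not independent, so 1 in 20 is only a rough guide.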

How the results depend on the processing

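No alternative turned the direction or ended the call of a named V gene with a CDR3 stop against productive joins (455 of 455 values). Many of these genes were named for a call, a large ratio and 1 direction in each library, so this agreement is partly fixed by the choice. Over all 93 genes tested 75 were called, against 66 without weights and 57 of 76 without the 5 µg library. Without V mismatches, not productive joins were 5.01% of in-frame joins, 94.5% of them had a CDR3 stop, 77.0% of CDR3 stops lay in D and 70.3% of upstream stops matched V; without joins translated in another frame the first 2 were 5.49% and 91.9%. The not productive share was 5.29% without unclear tags and 5.28% over CDR3s after a cysteine codon. With the polymerase libraries alone, aligned D differed by 1.51 bases with a CDR3 stop; without one, CDR3 length differed by -1.93, aligned D by -0.65, bases between D and J by -0.205 and the share without D by -3.15. In joins without a CDR3 stop, aligned D turned to -0.12 without joins translated in another frame, -0.057 from 10 aligned D bases, -0.0806 without mismatches, -0.19 with single D calls, -0.0199 without unclear tags and -0.0166 after a cysteine codon. Bases between D and J turned to 0.0028 per clone, 0.13 and 0.059 from 10 and 8 aligned D bases, 0.0175 from 5 reads and 0.036 with single V calls. Without mismatches DSP2 turned to -0.33, DQ52 to 1.87, DST4 to 1.47 and DFL16 frame 1 to 1.25; DQ52 turned to 0.17 from 10 aligned D bases, and without joins translated in another frame DFL16 frame 1 turned to 1.97 and frame 2 to -1.32. With a CDR3 stop, DFL16 turned to -0.29 from 10 aligned D bases, and without unclear tags DSP2 frame 1 to -0.14 and Ighj2 to -1.0.

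The exact test with its alternatives, CDR3s after a cysteine codon and leaving out joins translated in another frame were chosen after seeing the data. V genes called without a CDR3 stop were 27 by limma, 8 with at least 500 joins and 9 to 24 leaving out each library; by the exact test they were 25, and 3 to 25. Against out-of-frame joins 11 became 7 per clone, 5 with at least 500 joins, 4 without weights and 5 to 12 leaving out each library. No log2 ratio that changed sign passed the test under the alternative: against productive joins without a CDR3 stop, Ighv3-6 (0.068 with 1 added, 0.073 without weights, -0.19 to 0.31 leaving out each library), Ighv1-9 (-0.55 to 0.12) and Ighv12-3 (-0.23 by the exact test); against out-of-frame joins, Ighv1-18 (-0.031 without weights, -0.019 to 0.089), Ighv13-2 (0.11 without weights, -0.073 to 0.085) and Ighv1-26 (-0.013 per clone, -0.022 by the exact test, -0.040 with single V calls, -0.042 to 0.15). The causes were not tested.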
